A study of Homo sapiens with 9 samples.

Results

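The HOX genes considered here are the protein-coding genes of the deposited count table whose names are HOXA, HOXB, HOXC or HOXD followed by a number. The rule found 39 genes of 58735 in the table: 11 HOXA genes, 10 HOXB genes, 9 HOXC genes and 9 HOXD genes. The samples were OVCAR3 cells, an established human cell line from an ovarian adenocarcinoma, kept in RPMI medium with serum and bovine insulin and sequenced after 72 h in culture. The labels give 3 groups with 3 samples each: a scramble short hairpin RNA, labelled wild type, and 2 hairpins against GPX3, labelled knock-down and called sh76 and sh78 after their numbers 76 and 78. A short hairpin RNA is processed in the cell into a small guide that lowers matching mRNAs, and GPX3 encodes a secreted glutathione peroxidase. All groups are the same cell line, each knockdown rests on 1 hairpin, and both hairpins were compared with the same scramble samples. The labels do not say whether the replicates were separate cultures, so p-values measure only the spread between these samples.

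HOX genes encode homeodomain transcription factors that give cells of the embryo their position along the body axis. They lie in clusters in which the order of the genes follows the order of their expression, with low-numbered genes (paralog groups) acting towards the head and high-numbered genes towards the tail. In the female reproductive tract, HOXA9, HOXA10, HOXA11 and HOXA13 mark the oviduct, the uterus, the lower uterus and the vagina in that order. HOX proteins bind DNA together with PBX and MEIS cofactors, Polycomb complexes keep silent HOX genes off, Trithorax complexes keep active ones on, and retinoic acid induces the low-numbered genes.

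The libraries were non-directional and made from poly-A RNA, and total counts ran from 14652965 to 21327562. GPX3 itself was at 173.2, 109.2 and 117.3 CPM (a count relative to its library total, adjusted by TMM factors) in scramble, 56.8, 55.2 and 55.5 CPM in sh76 and 35.3, 28.4 and 28.3 CPM in sh78, with no overlap between the groups. All 11 ovarian epithelial markers listed were well detected, with PAX8 at 99.6 to 128.8 FPKM and KRT8 at 559.7 to 803.9 FPKM as group means. FPKM is the fragment count scaled for gene length and library size. Of the markers of other cell types, CD68 had at most 1 count in any library, LUM at most 3 and CD3E at most 6, while COL1A2 had 142 counts in sh76 replicate 2 against 19 to 51 in the other libraries. HOX genes together took 0.0255% to 0.0286% of the counts of a library.

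The HOX genes of OVCAR3 cells were on mainly in the HOXA and HOXB clusters. A gene was counted as expressed when its mean was at least 1 FPKM in at least 1 group, as low when it stayed under that but had more than 3 counts in some library, and as at the floor when it had 3 counts or fewer in every library. By this rule 16 of the 39 were expressed, 18 were low and 5 were at the floor, and 13919 of all 58735 genes were expressed. The expressed genes were 9 of 11 in HOXA, 5 of 10 in HOXB, 1 of 9 in HOXC (HOXC6) and 1 of 9 in HOXD (HOXD8). The genes at the floor were HOXB1, HOXB8, HOXC5, HOXC11 and HOXC12, and HOXB1 had 0 counts in all 9 libraries. Nearest to the limit were HOXA6, at 0.972, 1.67 and 0.987 FPKM in scramble, sh76 and sh78, HOXC6, at 1.02, 1.31 and 1.24 FPKM, and HOXC4, which stayed below it at 0.925, 0.875 and 0.770 FPKM.

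HOXA5 was the most highly expressed HOX gene in every library. Its level was 26.6, 26.6 and 30.3 FPKM in the scramble samples, 29.8, 31.7 and 33.6 FPKM in sh76 and 27.4, 28.4 and 26.7 FPKM in sh78. The highest value of any other HOX gene was 22.53 FPKM, for HOXB2 in sh76 replicate 1. The next levels in scramble belonged to HOXB2 at 18.3 ± 2.98 FPKM and HOXA3 at 14.2 ± 2.42 FPKM (SD, n = 3), whose samples overlapped. HOXB7 followed at 7.71 FPKM, HOXA4 at 6.43, HOXA2 at 5.32, HOXA9 at 4.32 and HOXD8 at 4.04 as scramble means. HOXA9 overlapped with both HOXA2 and HOXD8 in its scramble samples, so the order among these 3 lay within their spread. HOXB4 (3.21), HOXB13 (2.67), HOXB3 (2.35), HOXA7 (2.35), HOXA10 (1.36) and HOXC6 (1.02 FPKM) were also at 1 FPKM or more in scramble.

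**Figure D1:**
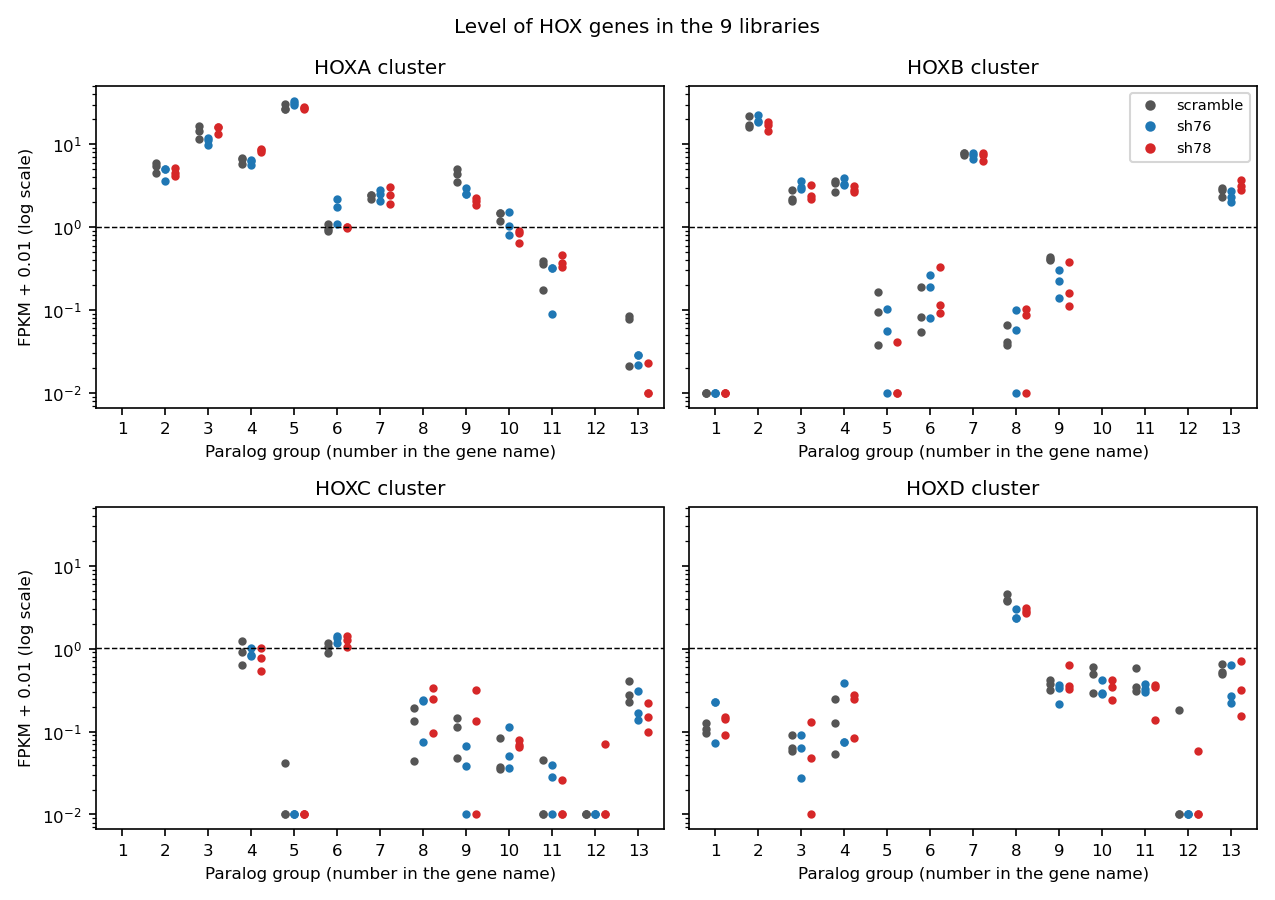
Level of HOX genes in each of the 9 libraries, as FPKM plus 0.01 on a log axis, against the paralog group, with 1 panel per cluster and the dashed line at 1 FPKM. The HOXA genes of groups 2 to 10 lie near or above the line, the HOXC and HOXD genes lie below it except HOXC4 and HOXC6, which straddle or top it, and HOXD8.

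Levels fell from the low-numbered to the high-numbered end of the HOXA cluster, with HOXA11 at 0.297 and HOXA13 at 0.0517 FPKM in scramble. The HOXB cluster had an interrupted pattern: HOXB2, HOXB3, HOXB4 and HOXB7 were expressed, while HOXB5 had at most 5 counts and HOXB6 at most 14 counts in a library. HOXB13, a gene best known from the prostate and colon, was expressed at 2.67, 2.34 and 3.2 FPKM in the 3 groups. It lies 98.4 kb from HOXB9, its nearest HOX neighbour, and HOXB9 was low at 0.408, 0.212 and 0.208 FPKM. PRAC1, which lies between them, had at most 1 count in a library. In the HOXD cluster, HOXD8 stood alone, and HOXD9, HOXD10, HOXD11 and HOXD13 ranged from 0.273 to 0.548 FPKM as group means.

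After the filter on low counts, 24 of the 39 HOX genes could be tested: 10 in HOXA, 6 in HOXB, 3 in HOXC and 5 in HOXD. Against scramble, sh76 gave 2 called genes of 24 (8.33%), HOXA9 and HOXD8, both lower. Of all 17023 genes tested, 3.58% were called in this comparison and 2.16% were lower. In sh78, 1 of 24 (4.17%), HOXA9, was lower, a share close to the 4.41% called and above the 2.56% lower among all genes. Between the hairpins, 0 of 24 were called by edgeR against 3.70% of all genes, and DESeq2 called 2 (HOXA3 and HOXA4). An unadjusted edgeR p under 0.05 was found for 6, 5 and 6 of the 24 in sh76, sh78 and between the hairpins. Of all 17023 genes tested, 2959, 2983 and 2768 had such a p in that order. The median log2 fold change of the 24 genes was −0.19 in sh76, −0.11 in sh78 and −0.07 between the hairpins, and that of all genes was 0.01, 0.01 and 0.00 in the same order. These fits held no term for the replicate number, although samples of the same number varied together. With the replicate number as a block, 5 HOX genes were called in sh76, 4 in sh78 and 7 between the hairpins. Of all genes, 20.4%, 19.9% and 18.3% were called with the block.

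**Figure D2:**
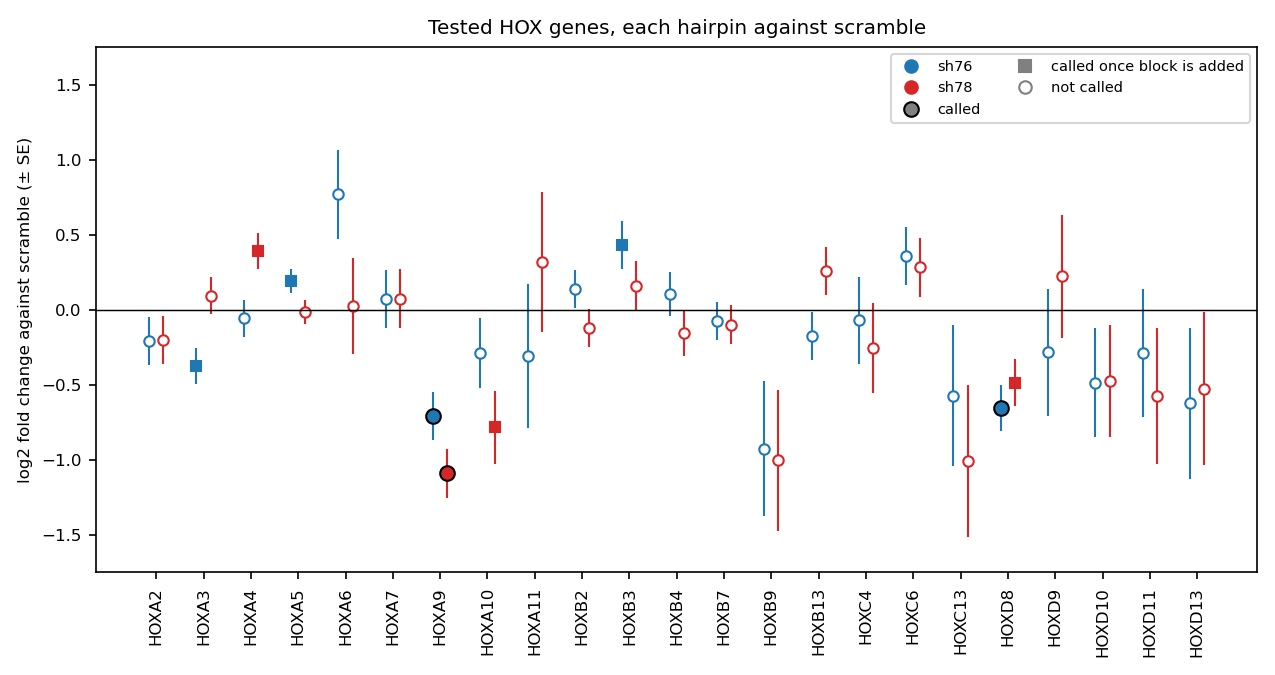
Log2 fold change of tested HOX genes in sh76 (blue) and sh78 (red) against scramble, with bars of 1 standard error from edgeR. Filled circles mark HOXA9 in both hairpins and HOXD8 in sh76, squares mark genes called once a replicate block was added, and open circles mark genes not called.

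HOXA9, a posterior HOX gene of the oviduct and of blood progenitors, was the HOX gene with the lowest p in both hairpins. Its level was 10.7, 13.5 and 15.3 CPM in the 3 scramble samples, 7.59, 7.61 and 8.97 CPM in sh76 and 5.60, 6.19 and 6.82 CPM in sh78. The 3 groups did not overlap: every scramble sample lay above every sh76 sample, which in turn lay above every sh78 sample. Among all genes tested, 22.5% had sh76 samples that did not overlap with scramble, and 21.5% had such sh78 samples. HOXA9 fell by 0.71 on the log2 scale in sh76 (SE 0.157, edgeR adjusted p = 0.0224), to 61.2% of scramble. In sh78 it fell by 1.09 (SE 0.163, edgeR adjusted p = 0.00159), to 47.0% of scramble. In bulk RNA, fewer cells with a transcript and less of it per cell cannot be told apart. The difference between the hairpins was −0.38 (SE 0.165, edgeR adjusted p = 0.265) and was called only once the block was added (edgeR adjusted p = 0.0462).

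The fall of HOXA9 in sh78 was called in all 9 fits that left out 1 library, with values from −1.22 to −0.97. The call in sh76 was lost without scramble replicate 2 (edgeR adjusted p = 0.0793), scramble replicate 3 (0.105), sh76 replicate 1 (0.0618) or sh76 replicate 2 (0.111), with values of −0.70, −0.59, −0.67 and −0.67. sh76 replicate 2 is also the library with the high COL1A2 count. Epithelial markers moved in the same samples: 3 of 11 were called in sh76 (2 lower, 1 higher) and 5 of 11 in sh78 (all lower), where 3.58% and 4.41% of all genes were called. FOLR1 fell to 46.0% and 47.2% of scramble, PAX8 fell and KRT19 rose in sh76, and EPCAM, KRT8, KRT18 and KRT19 fell in sh78, to 69.7% to 80.5%. Their part in the HOX results was not tested.

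HOXD8, the one expressed gene of its cluster, was the other HOX gene called. Its level was 10.2, 12.2 and 9.76 CPM in scramble, 6.11, 8.04 and 6.16 CPM in sh76 and 8.19, 7.50 and 7.15 CPM in sh78. All 6 hairpin samples lay below all 3 scramble samples, while sh76 and sh78 overlapped. HOXD8 fell by 0.66 in sh76 (SE 0.156, edgeR adjusted p = 0.0323), to 63.5% of scramble. Its value in sh78 was −0.49 (SE 0.157, edgeR adjusted p = 0.107), which was called only once the block was added (edgeR adjusted p = 0.00635). The 2 hairpins differed by 0.17 (SE 0.160, edgeR adjusted p = 0.685). The sh76 call was lost in a fit to those 2 groups alone (−0.66, edgeR adjusted p = 0.0568) and without scramble replicate 2 (−0.56, 0.140), scramble replicate 3 (−0.72, 0.0556), sh76 replicate 1 (−0.59, 0.0956) or sh76 replicate 3 (−0.59, 0.122).

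**Figure D3:**
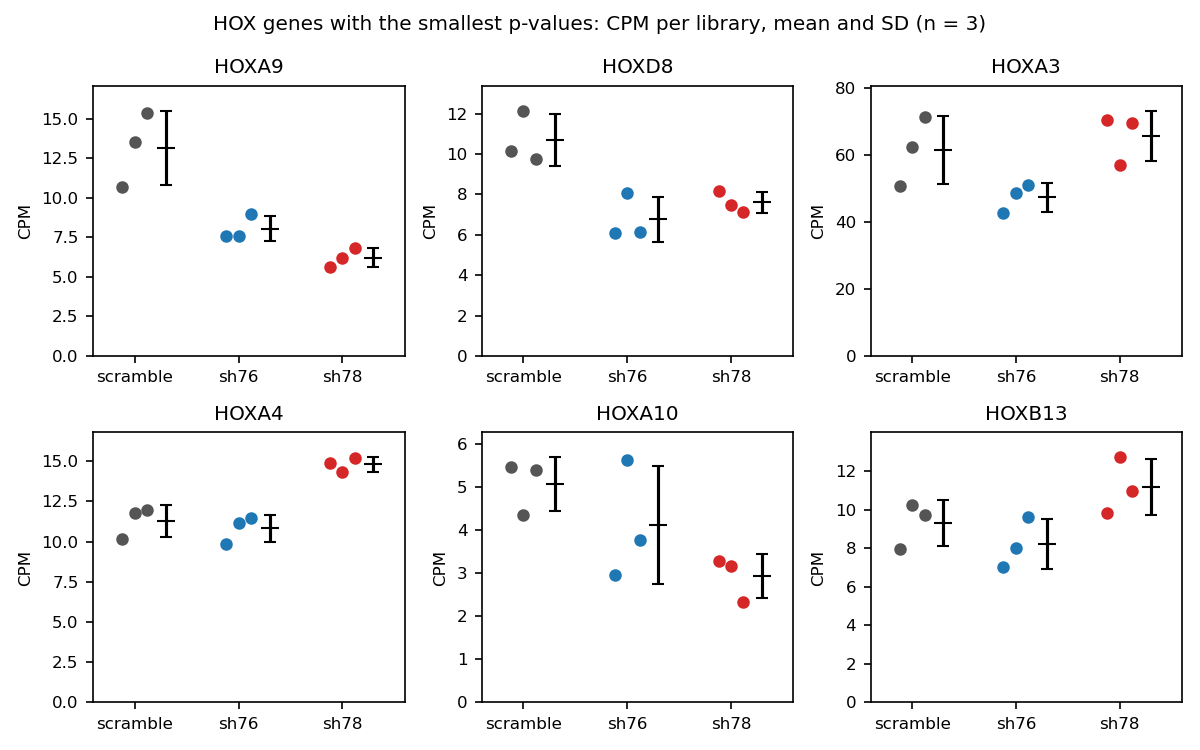
CPM of the 6 HOX genes with the smallest p-values in each library, with the mean and SD of 3 replicates per group beside the points. HOXA9 steps down from scramble (10.7 to 15.3) through sh76 (7.59 to 8.97) to sh78 (5.60 to 6.82), and HOXA4 is highest in sh78.

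The 2 called genes and HOXA4, which was not called lower in either hairpin, are shown by the DNA before their RefSeq transcription starts, on GRCh38.p14, so that genes that fell can be read beside one not called lower. Each run lies on the gene's own strand and covers the longest stretch of the 250 bases before the start that holds no annotated exon, and capitals mark each CG dinucleotide. The HOXA9 stretch is chr7:27165538-27165787 on the minus strand, that of HOXD8 is chr2:176129455-176129693 on the plus strand, and that of HOXA4 is chr7:27130800-27131007 on the minus strand.
HOXA9: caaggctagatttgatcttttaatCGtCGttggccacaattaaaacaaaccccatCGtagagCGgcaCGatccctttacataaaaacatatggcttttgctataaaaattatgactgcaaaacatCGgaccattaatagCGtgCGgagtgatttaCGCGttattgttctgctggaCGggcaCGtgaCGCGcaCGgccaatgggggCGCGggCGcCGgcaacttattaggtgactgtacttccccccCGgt
HOXD8: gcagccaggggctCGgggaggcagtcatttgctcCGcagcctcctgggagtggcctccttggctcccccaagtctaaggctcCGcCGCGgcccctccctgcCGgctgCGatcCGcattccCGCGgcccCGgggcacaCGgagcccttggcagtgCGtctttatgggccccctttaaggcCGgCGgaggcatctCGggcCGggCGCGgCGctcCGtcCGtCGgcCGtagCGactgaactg
HOXA4: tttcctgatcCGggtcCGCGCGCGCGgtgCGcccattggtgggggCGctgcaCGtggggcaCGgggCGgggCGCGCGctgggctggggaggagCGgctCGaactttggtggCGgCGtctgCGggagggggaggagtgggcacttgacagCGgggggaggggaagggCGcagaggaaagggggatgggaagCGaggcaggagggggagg
The HOXA9 run has 20 CG dinucleotides in 250 bases with a GC content of 48.8%, that of HOXD8 has 25 in 239 bases at 72.0%, and that of HOXA4 has 22 in 208 bases at 74.0%. RefSeq windows (250 bases before to 50 after each start) were found for 20 of the 39 HOX symbols, 27 windows in all. Some symbols, such as HOXA3, had several windows. CG dinucleotides and motifs were counted only in the 250 bases before each start. The median of the HOX windows was 19 CG dinucleotides, against 11 over all 35116 windows. The palindrome CACGTG, an E-box, was in 8 of the 27 windows, HOXA9 and HOXA4 among them, and in 6.34% of all windows. In HOXA9 it begins 71 bases before the start and in HOXA4 200 bases before. TATAAA on either strand was in 5 HOX windows and 10.72% of all, and lay 150 bases before the HOXA9 start. The PBX-HOX motif TGATNNAT on either strand was in 3 HOX windows (HOXA2, HOXB1 and HOXD11) and 6.47% of all, and AGGTCA, a nuclear receptor half-site, was in 0 and 12.08%. The HOXD8 window held none of these 4 motifs.

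The anterior genes, groups 1 to 4, moved little as a sum and HOXA3 and HOXA4 were called between the hairpins in some alternative fits only. HOXA3, a gene of the pharyngeal arches and thymus, was at 50.8, 62.5 and 71.2 CPM in scramble, 42.6, 48.5 and 51.1 CPM in sh76 and 70.4, 56.9 and 69.6 CPM in sh78. Each sh76 sample was below the scramble sample of the same number, although the groups overlapped, and the sh78 samples lay above all sh76 samples. The difference of sh78 from sh76 was 0.47 (SE 0.122, edgeR adjusted p = 0.0521), and was called with the block (0.0132), with DESeq2 (0.0116), with no low-count filter (1.75e-05), in the fit to those 2 groups (0.0197) and without scramble replicate 1 (0.0119), scramble replicate 3 (0.0304) or sh78 replicate 2 (0.0395). That of sh76 from scramble was −0.38 (SE 0.122, edgeR adjusted p = 0.119), and was called with the block (0.0368), with no low-count filter (0.00176) and without scramble replicate 1 (−0.50, 0.0193). HOXA4 was at 10.2, 11.8 and 11.9 CPM in scramble, 9.87, 11.2 and 11.4 CPM in sh76 and 14.9, 14.3 and 15.2 CPM in sh78. All 3 sh78 samples lay above the 6 others. Its difference was 0.39 from scramble (SE 0.121, edgeR adjusted p = 0.0961, 0.00657 with the block, and 0.0461 with limma) and 0.45 from sh76 (SE 0.121, edgeR adjusted p = 0.0568, 0.00173 with the block, 0.0283 with DESeq2, 0.0312 with limma and 0.0448 without scramble replicate 1).

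Other anterior genes were not called. HOXA2 was at −0.21 and −0.20 on the log2 scale in sh76 and sh78. HOXB2, which acts in the hindbrain, had 0.14 and −0.12, and was called lower in sh78 than in sh76 only with the replicate block (−0.26, SE 0.126, edgeR adjusted p = 0.331, and 0.0163 with the block). HOXB3 was at 21.2, 16.5 and 15.2 CPM in scramble and 27.0, 22.6 and 21.7 CPM in sh76, with no overlap. Its difference of 0.43 (SE 0.160) was not called (edgeR adjusted p = 0.170), except with the block (0.000205) and with no filter on low counts (0.0196). HOXB3 in sh78 was at 24.4, 16.5 and 17.8 CPM, inside the range of the others.

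Of the middle genes, groups 5 to 8, HOXA5 had the smallest errors. Its sh76 samples, at 51.3 to 57.7 CPM, overlapped with scramble at 45.8 to 51.7 CPM and not with sh78 at 45.9 to 48.7 CPM. The difference of sh76 from scramble was 0.19 (SE 0.0791, edgeR adjusted p = 0.215, and 0.0175 with the block). HOXA6 was at 2.84, 2.28 and 1.38 CPM in sh76 and at 1.16, 1.23 and 1.38 CPM in scramble, so that the third sh76 sample lay beside the highest scramble one. Its log2 value of 0.77 had an SE of 0.298 and an edgeR adjusted p of 0.188. HOXB7 (−0.08 and −0.10 in sh76 and sh78), HOXA7 (0.07 and 0.07) and HOXC6 (0.36 and 0.28) were called in no fit.

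Of the posterior genes beside HOXA9, HOXA10 and HOXB13 had the next smallest p-values. HOXA10, the gene next to HOXA9 and a regulator of the uterus, was at 5.46, 4.34 and 5.40 CPM in scramble, 2.96, 5.62 and 3.77 CPM in sh76 and 3.29, 3.16 and 2.34 CPM in sh78. The sh78 samples lay below all scramble samples, as did sh76 replicates 1 and 3. Only sh76 replicate 2, the library with the high COL1A2 count, lay above them. Its value in sh78 was −0.78 (SE 0.246, edgeR adjusted p = 0.0994, 0.00533 with the block, and 0.0281 with no low-count filter), and in sh76 it was −0.29 (SE 0.235, edgeR adjusted p = 0.583). HOXB13 was at 7.97, 10.2 and 9.70 CPM in scramble, 7.03, 7.996 and 9.59 CPM in sh76 and 9.80, 12.7 and 10.98 CPM in sh78. Only sh78 and sh76 did not overlap, with a difference of 0.44 (SE 0.160, edgeR adjusted p = 0.174, and 0.00838 with the block). HOXB9 was lower in CPM than every scramble sample in all 6 hairpin samples, at 16, 18 and 19 counts in scramble, 9, 7 and 16 in sh76 and 5, 14 and 6 in sh78, with SEs of 0.450 and 0.468 around −0.93 and −1.0. At these counts no difference was called.

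Samples of 2 groups that did not overlap in CPM were seen for a share of the HOX genes near the background against scramble. In sh76 against scramble this held for 6 of 24, where 22.5% of all genes had it: HOXA6, HOXA9, HOXB3, HOXB9, HOXC6 and HOXD8. In sh78 against scramble it held for 6 of 24, against 21.5%: HOXA4, HOXA9, HOXA10, HOXB9, HOXC13 and HOXD8. Between the hairpins it held for 9 of 24, against 21.8%: HOXA3, HOXA4, HOXA5, HOXA6, HOXA9, HOXA11, HOXB2, HOXB4 and HOXB13.

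Summed over clusters, the HOXA, HOXB and HOXC levels of the 3 groups overlapped. HOXA summed to 164.9 ± 17.7 CPM in scramble, 150.1 ± 12.6 in sh76 and 161.3 ± 6.69 in sh78, and HOXB to 95.5 ± 11.3, 104.8 ± 8.35 and 93.1 ± 7.72 CPM (SD, n = 3). HOXC summed to 7.42 ± 1.35, 8.12 ± 0.473 and 7.78 ± 1.11 CPM. HOXD was the one cluster where scramble stood apart from both hairpins, while sh76 and sh78 overlapped. Its sums were 14.3, 17.2 and 14.6 CPM in scramble, 10.2, 11.9 and 9.26 CPM in sh76 and 11.4, 12.4 and 10.7 CPM in sh78. All 6 hairpin sums of HOXD lay below the scramble sums, with log2 ratios of means of −0.55 and −0.42. Without HOXD8, the HOXD sums were 4.11 to 5.11 CPM in scramble, 3.10 to 4.13 CPM in sh76 and 3.18 to 4.88 CPM in sh78, and the groups overlapped. The sum of all 39 genes was 283.1 ± 7.996 CPM in scramble, 273.5 ± 5.24 in sh76 and 273.7 ± 14.3 in sh78.

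By position along the clusters, the sum of groups 9 to 13 stood lower in the hairpin samples. It was 30.3, 35.3 and 38.2 CPM in scramble, 22.2, 26.6 and 26.8 CPM in sh76 and 22.6, 28.9 and 25.7 CPM in sh78, with log2 ratios of −0.46 and −0.43. No hairpin sample reached the lowest scramble sample. Without HOXA9 the sums were 19.7 to 22.9 CPM in scramble, 14.6 to 19.0 CPM in sh76 and 17.02 to 22.7 CPM in sh78, so that sh76 stayed below scramble and sh78 overlapped with it. Groups 1 to 4 summed to 166.9 ± 1.43, 162.0 ± 1.87 and 169.4 ± 15.03 CPM and groups 5 to 8 to 81.6 ± 2.61, 86.4 ± 3.77 and 78.5 ± 2.16 CPM. For groups 1 to 4, sh76 (160.0 to 163.7 CPM) lay below scramble (165.3 to 168.2), and sh78 (152.1 to 179.5) overlapped with both. For groups 5 to 8, sh76 (82.1 to 89.3 CPM) lay above sh78 (76.1 to 80.3), and scramble overlapped with both.

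**Figure D4:**
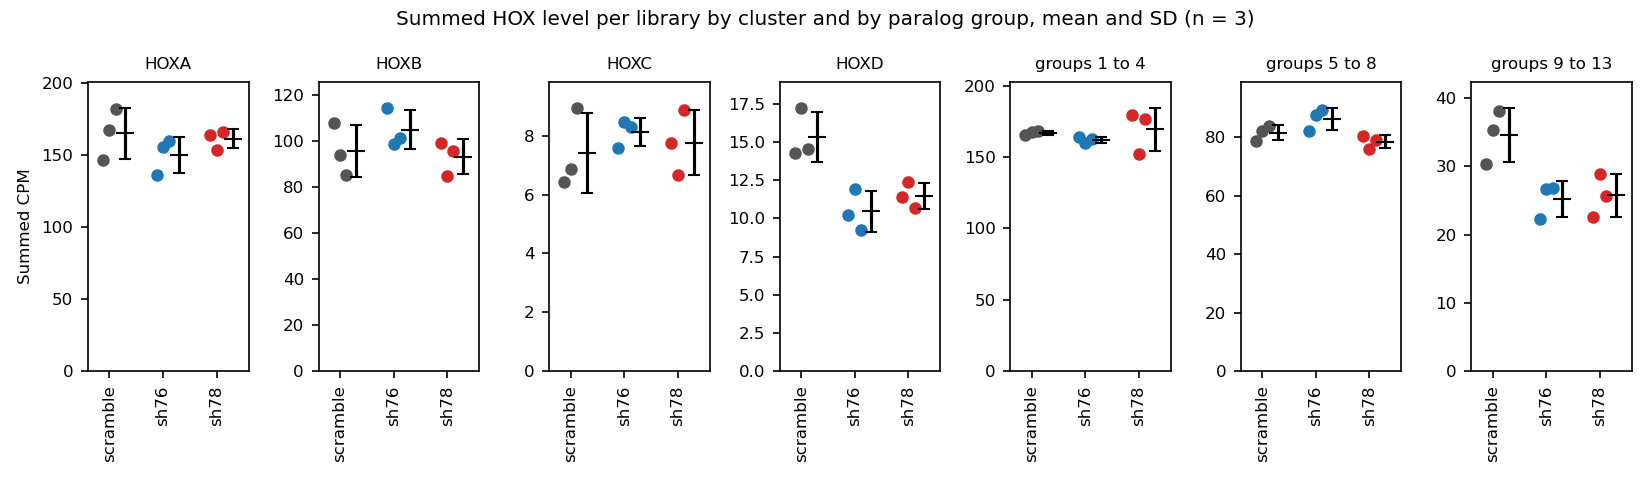
Summed CPM of each HOX cluster and of paralog groups 1 to 4, 5 to 8 and 9 to 13, with 1 point per library and the mean and SD of 3 replicates. The hairpin samples lie below all scramble samples in the HOXD panel and in the panel of groups 9 to 13, and the groups overlap in the HOXA, HOXB and HOXC panels.

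Neighbouring HOX genes share exon sequence, and the libraries carry no strand, so the counts of some members may hold or lack reads of others. In GENCODE release 29, HOXA9 (chr7:27162435-27175180, minus strand) shares 27.0% of its exon bases with another gene. Its model extends beyond the RefSeq start shown above and shares bases with HOXA10-AS, AC004080.3 and MIR196B. AC004080.3 and MIR196B had 0 counts in all 9 libraries, and HOXA10-AS had 8 to 22 counts, with log2 values of 0.09 and −0.21 that were not called. HOXD8 (chr2:176129694-176132695, plus strand) shares 0% of its exon bases, as do HOXA5 and HOXB13. HOXA10 shares 26.3%, HOXA3 17.9% and HOXA4 47.3%. HOXA3 and HOXA4 share 374 and 254 bases with the antisense gene HOXA-AS2, which had 337 to 515 counts in a library. HOXA4 itself had 158 to 277 counts, so its level is uncertain. HOXD3 (74.1%) and HOXD4 (80.5%) share the most with the protein-coding model AC009336.2, which had 0 to 7 counts in a library, so their low counts are uncertain. The same holds for HOXC5, which shares 59.9%, and for HOXA7, counted as expressed, which shares 62.5%, all of it with the antisense gene HOXA-AS3, itself at 47 to 72 counts in a library.

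**Figure D5:**
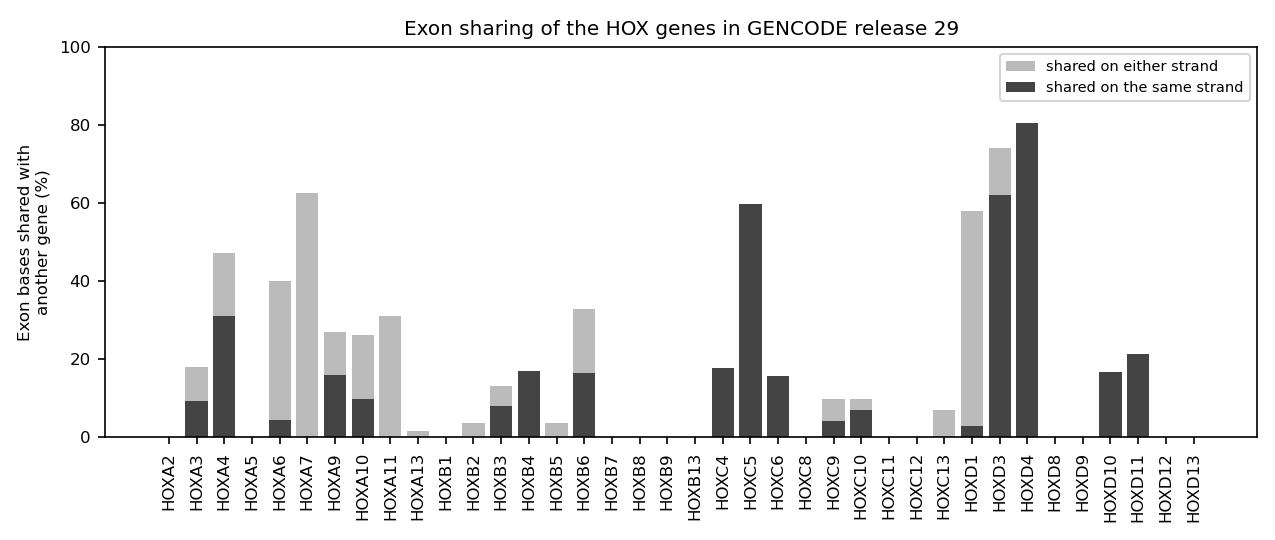
Percent of the exon bases of HOX genes that lie in an exon of another gene in GENCODE release 29, on either strand (light bars) and on the same strand (dark bars). HOXD4 and HOXD3 share most of their bases, HOXA9 27.0%, and HOXD8, HOXA5 and HOXB13 none.

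Noncoding genes of the clusters were tested for 9 of 19 in the table, and 0 were called by edgeR in each comparison. In order sh76, sh78, sh78 against sh76, 2, 1 and 1 had an unadjusted p under 0.05. Among all 17023 genes tested, 2959, 2983 and 2768 had such a p in the same order. HAGLR, an antisense RNA of the HOXD cluster, was at 6.04, 6.51 and 6.09 CPM in scramble, 3.33, 4.60 and 4.82 CPM in sh76 and 4.63, 4.40 and 3.90 CPM in sh78. All hairpin samples lay below scramble. The log2 values of −0.54 and −0.53 were called only once the block was added (edgeR adjusted p = 0.0172 and 0.0262, against 0.125 and 0.135 without it). HAGLR shares exon bases with HOXD1 and HOXD3 and none with HOXD8. The antisense RNAs HOTAIRM1 and HOXA-AS2 of the HOXA cluster, at 8.76 to 11.03 and 22.3 to 24.6 CPM as group means, were called in no comparison, and HOTAIR and HOTTIP had at most 2 counts in a library. Of the genes flanking the clusters, 5 of 11 were tested and 0 were called by edgeR (0, 1 and 1 at an unadjusted p under 0.05, and 0, 1 and 1 with the block).

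Few cofactors and chromatin regulators of HOX genes were called. Of the cofactors, 8 of 9 were tested and 0 were called against scramble in either hairpin, with medians of −0.01 and −0.03. In each hairpin 1 had an unadjusted p under 0.05, and 1 was called once the block was added. An unadjusted p under 0.05 was seen for 2959, 2983 and 2768 of all 17023 genes in sh76, sh78 and sh78 against sh76. Of the 27 Polycomb genes, 0 were called in sh76 (3 at an unadjusted p under 0.05) and 1 in sh78 by edgeR, with medians of −0.01 and 0.04. This was PHC2, a subunit of Polycomb repressive complex 1, which was higher by 0.33 (SE 0.0836, edgeR adjusted p = 0.0365). The call was lost without scramble replicate 2 (0.25), sh76 replicate 2 or any 1 of the sh78 samples (0.30 to 0.35). PHC2 and RBBP4 were also called higher in sh78 than in sh76, and both calls were lost without any 1 of the 6 hairpin samples. CBX6, another subunit, was at 0.48 and 0.45 and was not called (edgeR adjusted p = 0.105 and 0.120). It was called with the block (2.61e-09 and 6.55e-09), DESeq2 (0.0145 and 0.0212) and no low-count filter (1.3e-06 and 4.6e-06), and without sh76 replicate 1 (0.62 and 0.45, edgeR adjusted p = 0.00531 and 0.0124). Of the 19 Trithorax and related activators, 0 were called by edgeR in each comparison (0, 3 and 1 at an unadjusted p under 0.05), and their median log2 values were 0.06 in each hairpin. With the replicate block, 5, 6 and 4 of these 19 were called in sh76, sh78 and sh78 against sh76, and 3, 6 and 8 of the 27 Polycomb genes, where 20.4%, 19.9% and 18.3% of all genes were called.

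Of the genes of retinoic acid signalling, 14 of 18 were tested, and 3 fell in sh76 and 2 in sh78, where 2.16% and 2.56% of all genes fell. Their median log2 values were −0.28 and −0.23. With the replicate block, 6 and 5 of the 14 were called, against 20.4% and 19.9% of all genes. ALDH1A1, an enzyme that makes retinoic acid, was at 56.3, 59.6 and 55.5 CPM in scramble, 31.3, 24.9 and 25.3 in sh76 and 28.3, 25.2 and 29.7 in sh78. It fell by 1.08 and 1.04 (SE 0.100 and 0.101, edgeR adjusted p = 6.50e-05 and 7.32e-05). DHRS3, which converts retinal back to retinol, fell by 0.99 and 0.88 (SE 0.169 and 0.170, edgeR adjusted p = 0.00568 and 0.00905). CYP26A1, an enzyme that degrades retinoic acid, had at most 4 counts in a library. No tested HOX gene of groups 1 to 4 was called by edgeR against scramble without the replicate block. With the block, HOXA3 was called lower in sh76 (edgeR adjusted p = 0.0368) and HOXB3 higher in sh76 (0.000205). HOXA4 was then called higher in sh78 (0.00657). Whether the changes in retinoic acid genes bear on the HOX levels was not tested.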

How the data were processed

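OVCAR3 RNA was sequenced in 9 samples, 3 per group. The authors deposited a table of gene counts (raw counts, whole numbers) and a table of FPKM values per gene, with gene length as a further value, per the file headers. Per the submitters' processing notes, HISAT2 2.0.5, featureCounts 1.5.0-p3 and hg38 were used; their settings are not given in the sources used here. All 58735 genes have the start and end of GENCODE release 29. The FPKM library sizes came to 98.09% to 103% of the deposited count totals.

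Tests used edgeR 4.0.16 (R 4.3.3) on the counts: filterByExpr (minimum count 10, minimum total 15; 17023 genes), TMM, robust quasi-likelihood fits over all 9 samples, 3 contrasts, and Benjamini-Hochberg adjustment over all genes tested, with a call at an adjusted p under 0.05. A gene at 1 CPM had 14.5 to 21.0 counts, and the common biological coefficient of variation was 10.4%. The fits were also run on simulated counts drawn with no replicate effect, so that run does not bear on the pairing of the samples.

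Replicate numbers pair the samples: deviations from group means correlated at r = 0.14 to 0.39 in all 9 same-numbered pairs and −0.31 to 0.06 in the 18 others. The main fits held no term for this pairing, which only the replicate block takes up. Within-group pairs differed beyond counting noise (chi-square per degree of freedom 5.23 to 11.8).

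The HOX genes and all gene lists were chosen with earlier results of these data known. Full statistics are given for the HOX genes called in a comparison or, since fewer than 6 were called, the 6 with the smallest p, and of each related list for the called members (at most 5). HOXA5, HOXA6, HOXB2, HOXB3, HOXB9, HAGLR and CBX6 were named in more detail after their values were seen. Alternatives were RLE factors, DESeq2 1.42.0, no filter, the replicate block, fits to the 2 groups compared, limma 3.58.1 on log2(FPKM + 1), and each library left out. Results for a few genes of the lists are not reported here, though counts and sums include them.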

Additional observations from a re-analysis of the deposited data

Results flagged for a closer look

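In the direct edgeR test of sh78 against sh76, PHC2 and RBBP4, both Polycomb subunits and neither of them a HOX gene, differed between the knockdowns. PHC2 was higher in sh78 by 0.33 (SE 0.0833, edgeR adjusted p = 0.0438) and RBBP4 by 0.23 (SE 0.0548, edgeR adjusted p = 0.0323), and each was called in 3 of the 9 fits without 1 library.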

How the results depend on the processing

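The counts of called HOX genes were small and moved with the processing, and the cause was not tested. In sh76, where 2 were called, the count was 4 with no filter on low counts, 5 with the replicate block and 1 in the fit to the 2 groups alone, and 0 to 3 when each library was left out. In sh78, where 1 was called, it was 2 with no filter, 4 with the replicate block and 2 with limma on log2(FPKM + 1), and 1 in every fit without a library. Between the hairpins, where 0 were called, it was 2 with DESeq2, 1 with no filter, 7 with the replicate block, 1 in the fit to the 2 groups, 1 with limma, and 0 to 2 when each library was left out. The number of expressed HOX genes was 18 at 0.5 FPKM, 12 at 2 FPKM and 16 to 17 without each library. Of 585 alternatives for single genes, 509 kept their direction and side of the threshold and 2 turned the sign, both of differences that were not called: HOXA4 in sh76 was 0.00118 without sh76 replicate 1 (range −0.132 to 0.00118 over the libraries left out), and HOXA3 in sh78 was −0.0277 without scramble replicate 1 (range −0.0277 to 0.211). The alternatives for HOXA5, HOXB2, HOXB3, the related genes and GPX3 were chosen after seeing the data. All alternatives for the cluster sums moved by less than the spread between replicates, but some sums turned their sign without 1 library. In sh78 against scramble the log2 ratios ran from −0.111 to 0.0426 for HOXA, −0.112 to 0.0587 for HOXB and −0.04 to 0.226 for HOXC. The HOXC sum in sh78 against sh76 ran from −0.171 to 0.0358. HOXD stayed lower than scramble, at −0.657 to −0.462 in sh76 and −0.481 to −0.331 in sh78. HOX genes with at most 27 counts in every library, such as HOXB9, had standard errors of 0.366 to 0.530 on the log2 scale.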
